A study of Mus musculus with 6 samples.

Results

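The enzymes described here clear peroxides, superoxide, quinones and electrophiles, and they include the enzymes that make and recycle glutathione. The members were chosen by gene symbol as the cytosolic, mitochondrial and peroxisomal glutathione transferases (Gsta, Gstm, Gstp, Gstt, Gsto, Gstk and Gstz), the glutathione peroxidases (Gpx), the peroxiredoxins (Prdx), the thioredoxins and their reductases (Txn, Txnrd), the superoxide dismutases, catalase, the heme oxygenases, the quinone reductases, and the glutathione synthesis and reduction genes Gclc, Gclm, Gss and Gsr. This gave 49 genes of 19321 named on the array, each read by 1 probe. Their RNA was measured on 6 arrays, in freshly sorted cells of C57BL/6 mouse hind limb muscle: PDGFRa+ mesenchymal progenitors, satellite cells, and a mixture of CD31+ or CD45+ cells (called CD31/CD45 cells below), each from young mice of 8 to 10 weeks and from aged mice of 24 to 28 months. No allele or agent is named for any group, and each array holds cells pooled over repeated sorts, which leaves 1 array for every combination of population and age. PDGFRa+ progenitors lie between the fibres and give rise to fibroblasts and fat cells, satellite cells regenerate the fibres after injury, and CD31 and CD45 mark endothelial and hematopoietic cells.

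Glutathione is a small thiol made by glutamate-cysteine ligase (Gclc and Gclm) and glutathione synthetase (Gss) and kept reduced by glutathione reductase (Gsr). Glutathione peroxidases use it to reduce peroxides and glutathione transferases couple it to electrophiles, while peroxiredoxins reduce peroxides with electrons that thioredoxin and thioredoxin reductase supply. Many of these genes are known targets of the transcription factor NRF2 (Nfe2l2), which binds the antioxidant response element, and KEAP1 holds NRF2 inactive in unstressed cells.

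Of 23473 probes, 88.4% to 92.3% per array were above the background set by the blank spots, which is the measure of depth here, and the number of arrays limits the precision. All 49 members were above background on at least 2 arrays and entered the tests with 18372 genes in all, and 47 were above it on all 6. Gsta2 was not above background in young satellite and young CD31/CD45 cells, and Gstt4 was not in young satellite cells. The correlation across genes (no independent replicates) was 0.985 to 0.992 between the young and the aged array of a population and 0.842 to 0.929 between populations. The sorted identities were checked on marker lists. The 5 measured mesenchymal progenitor markers summed to 40285 to 56664 on the PDGFRa+ arrays, 1099.8 to 4532 on the satellite arrays and 425 to 563 on the CD31/CD45 arrays. The 6 satellite markers summed to 8637 to 9819.5 on the satellite arrays against 298.5 to 797 elsewhere, and Pax7 was not above background on either PDGFRa+ array. The 6 endothelial markers summed to 19885 to 26205 on the CD31/CD45 arrays and to at most 504.5 elsewhere. Markers of other cells were also read. The 6 pericyte and smooth muscle markers, with Acta2 the largest, summed to 9357.9 to 11397 on the CD31/CD45 arrays and 3867.6 to 6529.6 on the satellite arrays. On the PDGFRa+ arrays they summed to 576.9 to 884.5. The 4 measured erythroid markers summed to 4755.7 to 7945 on the CD31/CD45 arrays and to at most 823 elsewhere. Hbb-bt alone read 4645.9 to 7789 on the CD31/CD45 arrays. Without it the sums were 109.8 to 156 there and 34.1 to 52.6 elsewhere. Slc4a1 and Epb42 did not exceed 2.2 and 11.5 on the CD31/CD45 arrays and reached 5.1 and 15.5 elsewhere. The scanner gain in the file headers put the arrays into 2 sets: young PDGFRa+, young satellite and aged PDGFRa+ in one, and the other 3 in the other. PDGFRa+ and CD31/CD45 arrays never shared a set, and the young and the aged satellite array lay in different sets.

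Levels below are the authors' deposited linear intensities, scaled so that each array's median is 25, and a gene's level is set against its own level on other arrays. Differences are on a log2 scale computed from the scanner values with an offset of 50, on which 1 is 2-fold. The offset makes differences of dim genes smaller. The median over genes of the mean deposited intensity was 164 for the members and 31.6 for all genes tested. Shares and medians of members and of all genes below are not matched for brightness, and the part of brightness in them was not tested. A gene was called between cell types when limma's fit over the 6 arrays gave a Benjamini-Hochberg adjusted p under 0.05 over all genes and the difference was at least 2-fold, with 2 arrays per cell type. Only for called differences are "rose" and "fell" used below. Because a population has 1 young and 1 aged array and no stated replicate, p-values measure the spread left after a common age difference. In sorted bulk RNA, a change in the share of a cell type in the sort and a change of RNA per cell cannot be told apart.

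The promoter windows of the members were read from RefSeq (build GRCm38.p6), which held an entry for 42 of the 49 genes. The letters TGACNNNGC, a core form of the antioxidant response element, were searched on both strands over the 250 bases before each listed start. They occurred for 7 members (16.7% of those with an entry): Gclm, Gsta3, Gstm5, Gstm7, Prdx1, Sod1 and Txnrd1. Of all 27025 genes listed there, 11.5% had a match, and among all 32851 promoters of that length 10.2% did. A match is a description of the letters and not a binding site. The windows of Gsta3 and Gstm5, which were called between cell types, and of Prdx1 are shown with the match in capitals, 5′ to 3′ on the plus strand, which is the strand of all 3 genes.
Gsta3 chr1:21240404-21240532: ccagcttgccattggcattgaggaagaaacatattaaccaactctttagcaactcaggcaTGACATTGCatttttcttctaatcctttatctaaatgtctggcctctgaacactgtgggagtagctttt
Gstm5 chr3:107895752-107895853: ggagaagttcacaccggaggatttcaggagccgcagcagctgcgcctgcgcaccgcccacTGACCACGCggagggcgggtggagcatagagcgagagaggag
Prdx1 chr4:116685406-116685534: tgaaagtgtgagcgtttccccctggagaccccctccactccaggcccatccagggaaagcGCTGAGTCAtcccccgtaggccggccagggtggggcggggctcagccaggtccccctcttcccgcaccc
The Gsta3 and Gstm5 matches read TGACATTGC and TGACCACGC on the plus strand, ending 113 and 34 bases before the listed start. The Prdx1 match lies on the minus strand and reads GCTGAGTCA on the plus strand, ending 125 bases before the start. For Txnrd1, 1 of 3 listed starts had a match (GCTTTGTCA on the plus strand, which is the strand of the gene). By mean log2 level, Gsta3, Gstm5 and Prdx1 were highest in PDGFRa+ cells, Txnrd1, Gstm7 and Sod1 in satellite cells and Gclm in CD31/CD45 cells. Prdx1, Gstm7, Sod1 and Gclm were called in no comparison. Whether a match goes with a level was not tested.

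Several of the transferases lie next to each other in the genome. The starts of the 7 Gstm members fall within 149 kb of chromosome 3, those of Gstt1, Gstt3 and Gstt4 within 41.1 kb of chromosome 10, those of Gstp2 and Gstp3 within 17.2 kb of chromosome 19, and those of Gsto1 and Gsto2 within 10.8 kb of the same chromosome. Members of a cluster can be close in sequence. No probe sequences were used here, so whether a probe also reads a neighbouring copy was not tested, and values of the Gstm, Gstp and Gstt genes are uncertain in that respect.

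The question of which members differ between the sorted populations is answered first. PDGFRa+ cells carried the highest mean level of 21 of the 49 members, satellite cells of 18 and CD31/CD45 cells of 10. In all, 15 members were called in at least 1 of the 3 comparisons between cell types, and of these 10 were highest in PDGFRa+ cells, 4 in satellite cells and 1, Gstt2, in CD31/CD45 cells. These counts and those of the highest mean level were not made over all genes. No excess of a population among the members can therefore be read from them. The 34 members that were not called include all 4 glutathione synthesis and reduction genes and all 5 peroxiredoxins, and 33 of them had differences below 2-fold in each comparison.

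**Figure D1:**
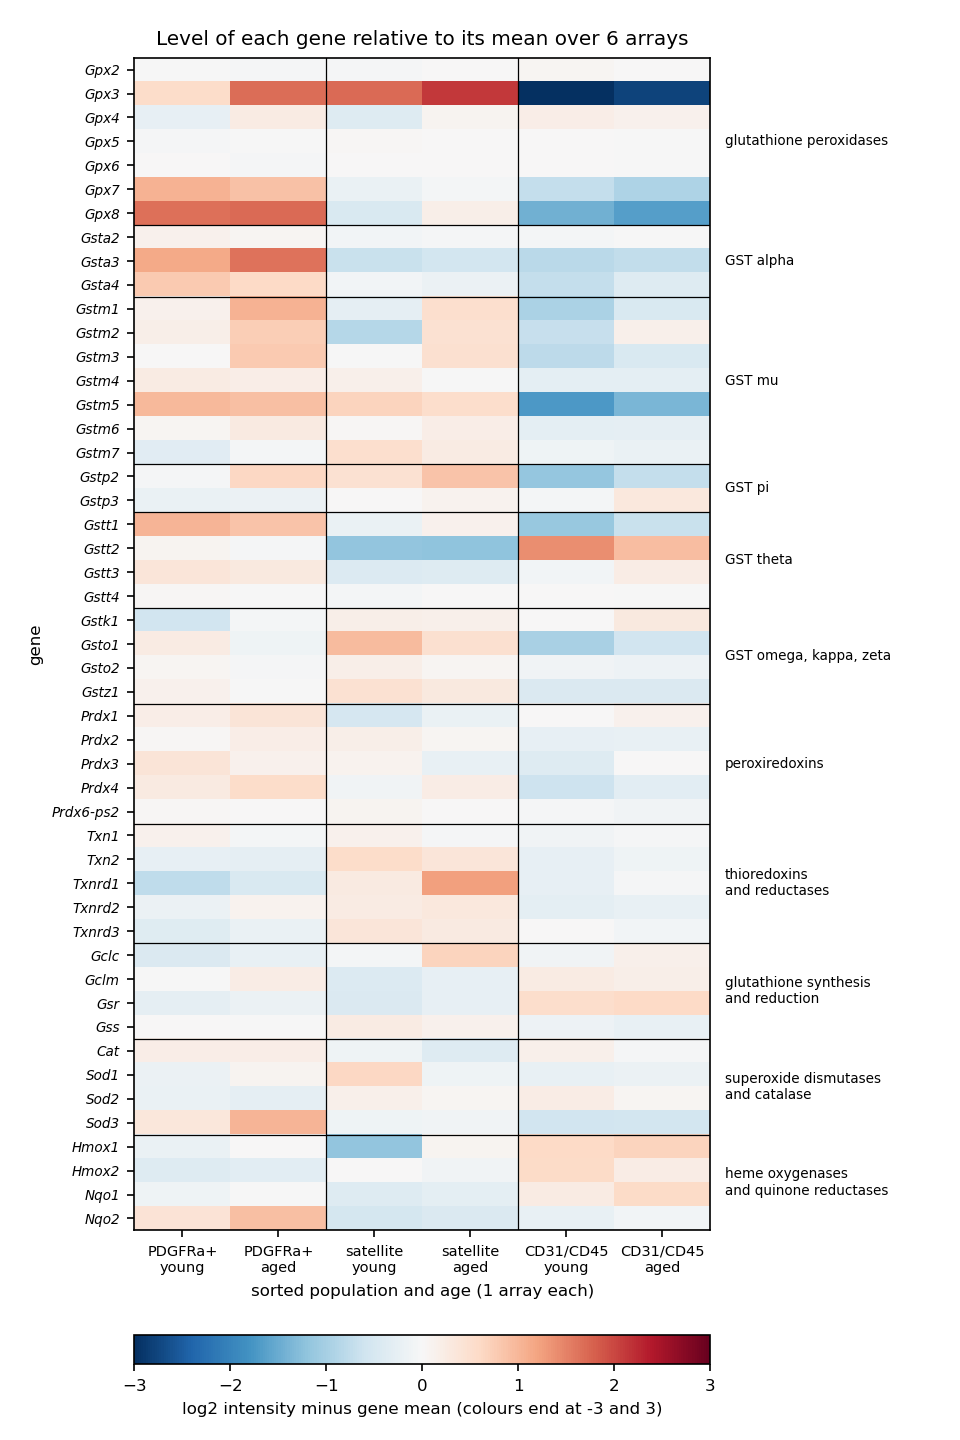
Level of each of the 49 genes on each of the 6 arrays (columns) as log2 intensity minus that gene's mean over the arrays, with genes grouped by family and colours ending at -3 and 3. Gpx3 is low on both CD31/CD45 arrays, Gpx8 is high on both PDGFRa+ arrays, Gstt2 is high on both CD31/CD45 arrays, and most peroxiredoxins and superoxide dismutases stay pale.

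Relative to satellite cells, Gpx7, Gpx8, Gsta3, Gstt2 and Nqo2 rose in PDGFRa+ cells, from 1.09 for Gpx7 to 1.98 for Gsta3, and Txnrd1 fell by 1.37. The tests called 6 members (12.2%) in either direction, where 7.29% of all genes were called. PDGFRa+ cells were higher for 5 members (10.2%, against 4.09% of all genes) and satellite cells for 1 (2.04%, against 3.2%). The median difference over the 49 members was 0.04 and over all genes -0.01, while the median of the absolute differences was 0.36 for the members and 0.14 for all genes. With 1 array left out the count was 0 without either PDGFRa+ array, when 0% of all genes were called, and 3 without the young satellite array, and with the local background of each spot subtracted it was 0.

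Relative to CD31/CD45 cells, 3 peroxidases (Gpx3, Gpx7 and Gpx8), 7 transferases (Gsta3, Gsta4, Gstm1, Gstm3, Gstm5, Gstp2 and Gstt1) and the extracellular dismutase Sod3 rose in PDGFRa+ cells, from 1.01 for Gstm3 to 4.13 for Gpx3, and Gstt2 fell by 1.13. Here 12 members (24.5%) were called against 10.1% of all genes. They comprised 11 that were higher in PDGFRa+ cells (22.4%, against 4.7%) and 1 that was higher in CD31/CD45 cells (2.04%, against 5.4%). The median difference was 0.16 for the members and 0.01 for all genes. Because these populations never shared a scanner set, the fit was repeated with the set as a block, and then 2 members, Gpx7 and Gpx8, stayed called. In this and every later fit with the block, the set term rests on the satellite pair, the only population with arrays in both sets. It cannot be told apart from an age difference particular to the satellite sort. A call lost or kept with the block is therefore no measure of the scanner set. The differences of the 10 members that lost the call kept their direction and ran from 0.92 (Sod3) to 3.75 (Gpx3) for the 9 higher in PDGFRa+ cells, with Gstt2 at -0.85. The count was 2 with the local background. The share of all genes is not set here beside this count or that with the block. Neither can be read as a change particular to the members.

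Gpx3, Gpx8, Gstm5, Gsto1 and Gstp2 rose in satellite relative to CD31/CD45 cells, from 1.40 for Gpx8 to 4.93 for Gpx3, and Gstt2 fell by 2.36. This comparison gave 6 called members (12.2%, against 11.7% of all genes), a share near that of all genes. Satellite cells were higher for 5 (10.2%, against 5.12%) and CD31/CD45 cells for 1 (2.04%, against 6.57%). With median scaling in place of quantile normalisation the split was 5 higher and 3 lower, and with the local background the count was 2. The share of all genes is not set here beside these counts, so no change particular to the members can be read from them. The median difference was 0.24 for the members and 0.02 for all genes. The comparisons share arrays pairwise, so their counts are given side by side and not as repeats of each other.

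**Figure D2:**
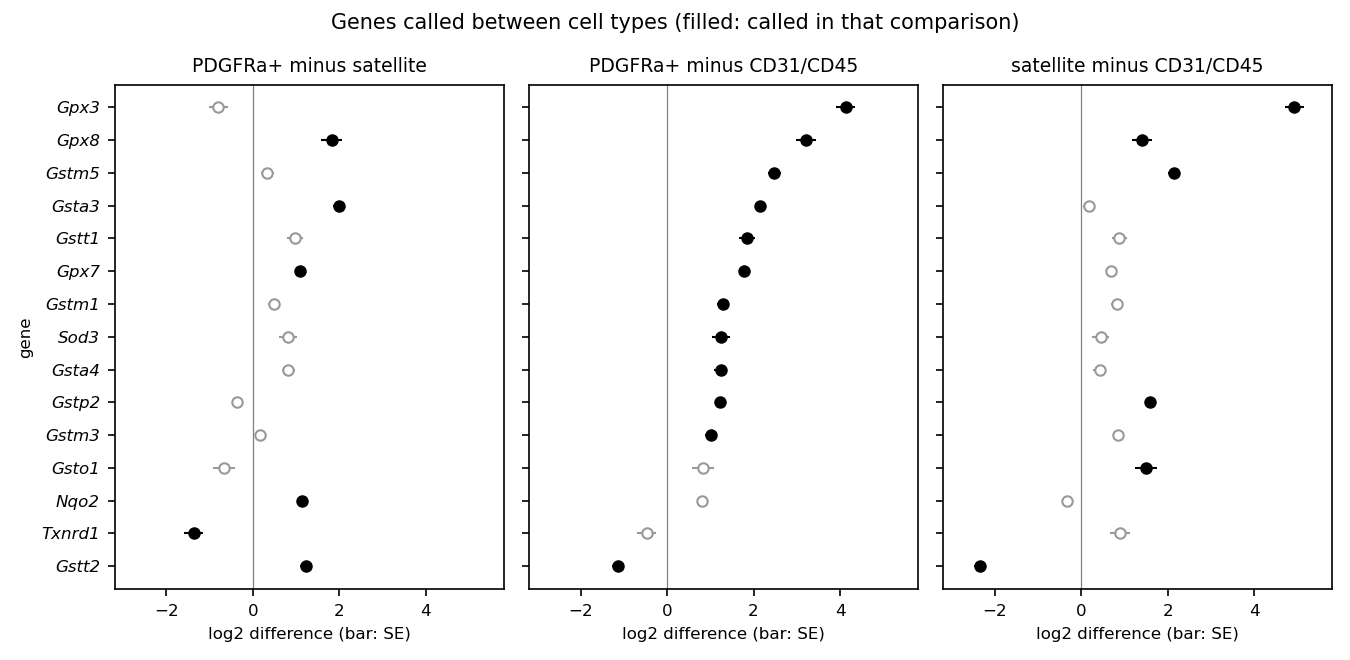
Log2 difference between populations (bar: standard error of the limma fit, 2 arrays per cell type) for the 15 genes called in at least 1 comparison; filled points are called in that panel. In the PDGFRa+ minus CD31/CD45 panel, 11 genes are called to the right of 0 and Gstt2 to the left, and Gstt2 changes side between the PDGFRa+ minus satellite panel and the others.

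Among the glutathione peroxidases, Gpx3, Gpx7 and Gpx8 separated the populations. Gpx3, the secreted peroxidase of plasma and extracellular fluid, read 3142 on the young and 6380.4 on the aged PDGFRa+ array, 10401.5 and 12335 on the satellite arrays, and 199.8 and 276 on the CD31/CD45 arrays. Both CD31/CD45 arrays lay far below the other 4, and the satellite arrays lay above the PDGFRa+ arrays at both ages. Gpx3 was 4.93 ± 0.22 (SE) higher in satellite than in CD31/CD45 cells (limma, adjusted p = 0.00218) and 4.13 ± 0.22 higher in PDGFRa+ than in CD31/CD45 cells (adjusted p = 0.00329, and 3.75 with an adjusted p of 0.0708 with the scanner set as a block). The difference between PDGFRa+ and satellite cells, -0.80 ± 0.22, was not called (adjusted p = 0.084).

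Gpx8, a membrane peroxidase of the endoplasmic reticulum that takes part in oxidative protein folding, read 2299 and 2264 in PDGFRa+ cells (young, then aged), 477 and 708 in satellite cells, and 233 and 191 in CD31/CD45 cells. The 3 populations did not overlap, in the order PDGFRa+, satellite, CD31/CD45. It was called in all 3 comparisons, with 1.82 ± 0.23 for PDGFRa+ over satellite cells (adjusted p = 0.0204), 3.22 ± 0.23 for PDGFRa+ over CD31/CD45 cells (adjusted p = 0.00552) and 1.40 ± 0.23 for satellite over CD31/CD45 cells (adjusted p = 0.0236). Gpx7, the other peroxidase of the endoplasmic reticulum, followed the same order, with 614.5 and 490.3, then 216 and 227, then 145 and 117. Its differences were 1.09 ± 0.11 over satellite cells (adjusted p = 0.0139) and 1.79 ± 0.11 over CD31/CD45 cells (adjusted p = 0.00407), and that between satellite and CD31/CD45 cells was below 2-fold at 0.69. The summed mesenchymal markers, like Gpx7 and Gpx8, were lower on the young than on the aged satellite array, and the part of PDGFRa+ cells within the satellite sort in these values was not tested.

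Gpx4, which reduces lipid hydroperoxides in membranes, lay between 1076 and 1765 on the 6 arrays, and its differences between populations did not exceed 0.16 upward and -0.32 downward, none called. Gpx2, Gpx5 and Gpx6, known from gut, epididymis and olfactory tissue, stayed between 3.3 and 8.2 on every array.

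**Figure D3:**
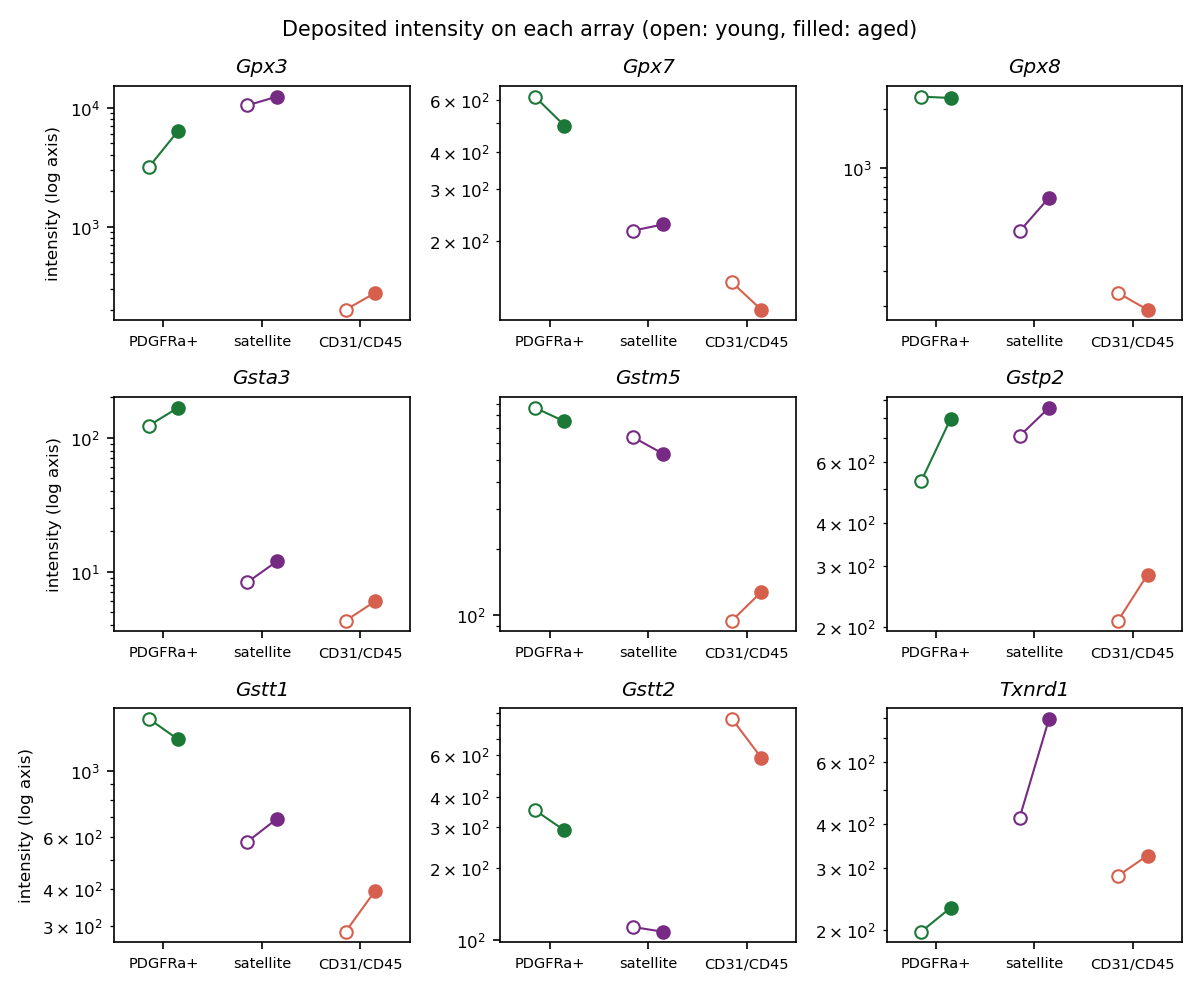
Deposited intensity (log axis, a scale of its own for each gene) of 9 genes called between cell types, with 1 point per array, open for young and filled for aged. The CD31/CD45 points are lowest for Gpx3, Gpx8, Gstm5, Gstp2 and Gstt1 and highest for Gstt2, and Gsta3 stands out in PDGFRa+ cells alone.

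Of the 3 measured alpha class transferases, Gsta3 was called higher in PDGFRa+ cells than in both other populations and Gsta4 than in CD31/CD45 cells. Gsta3 read 122.5 and 167 in young and aged PDGFRa+ cells, 8.3 and 11.9 in satellite cells, and 4.3 and 6 in CD31/CD45 cells. Both PDGFRa+ values lay far above the other 4. The differences were 1.98 ± 0.13 over satellite cells (adjusted p = 0.00819) and 2.15 ± 0.13 over CD31/CD45 cells (adjusted p = 0.00399), and the latter was 1.998 with an adjusted p of 0.0868 with the scanner set as a block. Gsta4, which conjugates the lipid peroxidation product 4-hydroxynonenal, read 179 and 136, 76.4 and 69.1, and 36.5 and 55.7 in the same order of arrays. It was called against CD31/CD45 cells (1.24 ± 0.15, adjusted p = 0.0143; 1.09 and 0.215 with the block) and was below 2-fold against satellite cells (0.81). Gsta2 did not exceed 5.2 on any array and was not called.

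In the mu class, Gstm1, Gstm3 and Gstm5 were higher in PDGFRa+ than in CD31/CD45 cells by the test and Gstm5 also in satellite cells, and the other 4 of the 7 members were called in no comparison. Gstm5 read 863 and 748 in young and aged PDGFRa+ cells, 634 and 535 in satellite cells, and 94.6 and 127.5 in CD31/CD45 cells. The PDGFRa+ and satellite arrays lay above both CD31/CD45 arrays by a wide margin. Gstm5 was 2.48 ± 0.15 higher in PDGFRa+ (adjusted p = 0.00389) and 2.14 ± 0.15 higher in satellite cells (adjusted p = 0.00435) than in CD31/CD45 cells, and PDGFRa+ and satellite cells differed by 0.34 (adjusted p = 0.206). With the scanner set as a block, the PDGFRa+ difference was 2.21 and its adjusted p 0.0794.

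Gstm1 read 1399 and 2440.0, 962 and 1633, and 599 and 805, young before aged, in PDGFRa+, satellite and CD31/CD45 cells. Gstm3 read 1150.5 and 1832, 1019 and 1391, and 595 and 714. For both genes the CD31/CD45 arrays were below the other 4, and the PDGFRa+ and satellite arrays overlapped across ages. Both were called in PDGFRa+ against CD31/CD45 cells, with 1.29 ± 0.13 for Gstm1 (adjusted p = 0.00926; 1.36 and 0.14 with the block) and 1.01 ± 0.12 for Gstm3 (adjusted p = 0.0148; 0.95 and 0.211 with the block), the latter just at 2-fold. Against satellite cells their differences were 0.48 and 0.16. Gstm2 was called in no comparison of cell types and is described with age; in young cells it was lower in satellite than in CD31/CD45 cells (379 against 435) and in aged cells higher. Gstm4 and Gstm6 stayed at or below 27.7 and 23.1, and Gstm7 ran from 25.4 in young PDGFRa+ to 74 in young satellite cells. None of the 3 was called.

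In the pi class, Gstp2 read 526 and 797 in young and aged PDGFRa+ cells, 711 and 858 in satellite cells, and 209 and 284 in CD31/CD45 cells. The last 2 values lay below the other 4. Gstp2 was higher by 1.22 ± 0.08 in PDGFRa+ (adjusted p = 0.00469; 1.075 and 0.0891 with the block) and by 1.60 ± 0.08 in satellite cells (adjusted p = 0.00262). Gstp3 lay between 2.3 and 18.5.

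The theta class split between populations. Gstt1 read 1497 and 1274 in PDGFRa+ cells, 576 and 688 in satellite cells, and 287 and 394 in CD31/CD45 cells. The populations did not overlap. Gstt1 was 1.85 ± 0.18 higher in PDGFRa+ than in CD31/CD45 cells (adjusted p = 0.00907; 2.02 and 0.128 with the block), and its other differences were below 2-fold, at 0.97 over satellite cells and 0.88 for satellite over CD31/CD45 cells.

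Gstt2 ran in another order, with 851 and 583 in young and aged CD31/CD45 cells, 352 and 289 in PDGFRa+ cells, and 113.5 and 108 in satellite cells. The 3 populations again did not overlap. Gstt2 was the only member called higher in CD31/CD45 cells, by -2.36 ± 0.13 for satellite minus CD31/CD45 (adjusted p = 0.00318) and -1.13 ± 0.13 for PDGFRa+ minus CD31/CD45 (adjusted p = 0.0136; -0.85 and 0.193 with the block). It was also 1.23 ± 0.13 higher in PDGFRa+ than in satellite cells (adjusted p = 0.0157). Gstt3, which ran between 90.8 and 192, was not called, and Gstt4 did not exceed 2.8.

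Of the omega, kappa and zeta classes, Gsto1, which reduces dehydroascorbate and removes glutathione from protein thiols, read 339 and 221 in satellite cells, 206 and 135.5 in PDGFRa+ cells, and 65 and 94.1 in CD31/CD45 cells. Satellite cells were above CD31/CD45 cells at both ages by 1.50 ± 0.25 (adjusted p = 0.0231; 1.26 and 0.105 with the scanner set as a block). Gstk1, the mitochondrial and peroxisomal transferase, read 225 and 304 in PDGFRa+, 376.5 and 354 in satellite and 336 and 399 in CD31/CD45 cells, and no comparison was called. Gstz1, an enzyme of tyrosine breakdown, read 148 and 118, 185.5 and 151, and 86 and 83.8. Its difference between satellite and CD31/CD45 cells, 0.80 ± 0.06, had an adjusted p of 0.0052 but was below 2-fold. Gsto2 did not exceed 11.9.

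The 5 peroxiredoxins were not called in any comparison, although the mean of 4 of them was highest in PDGFRa+ cells, that of Prdx2 by less than 0.01. Prdx1, a cytosolic peroxiredoxin, read 5058 and 5476 in PDGFRa+ cells, 3839 and 4396 in satellite cells, and 3969 and 4215 in CD31/CD45 cells. The PDGFRa+ values were the highest, by 0.64 ± 0.06 over satellite cells (adjusted p = 0.0134, below 2-fold). Prdx4, the peroxiredoxin of the endoplasmic reticulum, ran from 388 in young CD31/CD45 to 928 in aged PDGFRa+ cells, without overlap between the 3 populations. Its largest difference was 0.89 ± 0.04 for PDGFRa+ over CD31/CD45 cells (adjusted p = 0.00236, below 2-fold). Prdx2, also cytosolic, lay between 1149.9 and 1743, mitochondrial Prdx3 between 248 and 479.5, and Prdx6-ps2, whose symbol is that of a pseudogene, between 19.8 and 26.2.

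Of the 5 thioredoxins and reductases, Txnrd1 was called, in PDGFRa+ against satellite cells, and the other 4 were called in no comparison. Txnrd1, the cytosolic selenoenzyme that reduces thioredoxin with NADPH, read 416 and 795 in satellite cells (young, then aged), 285 and 325 in CD31/CD45 cells, and 198 and 231 in PDGFRa+ cells. The 3 populations did not overlap, and the aged satellite array stood well above the young one. Txnrd1 fell by 1.37 in PDGFRa+ relative to satellite cells (SE 0.22, adjusted p = 0.0308), and its difference between satellite and CD31/CD45 cells was 0.89 (adjusted p = 0.0575). Txn2, the mitochondrial thioredoxin, read 655 and 525 in satellite cells, 387 and 344 in PDGFRa+ cells, and 359 and 382 in CD31/CD45 cells. Satellite cells were above the others, by 0.64 ± 0.09 over CD31/CD45 cells (adjusted p = 0.0175), below 2-fold. Txnrd2, the mitochondrial reductase, ran from 42.2 to 81.4 and Txnrd3 from 122 to 209, each highest in satellite cells and not called. The probe for Txn1, the cytosolic thioredoxin, lay between 15.2 and 25.2, with overlap between the populations.

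Among the superoxide dismutases and catalase, the extracellular enzyme Sod3 alone was called. It read 104 and 168 in PDGFRa+ cells, 61 and 60.1 in satellite cells, and 35.5 and 36.8 in CD31/CD45 cells. The populations did not overlap. Sod3 was 1.25 ± 0.21 higher in PDGFRa+ than in CD31/CD45 cells (adjusted p = 0.0266; 0.92 and 0.34 with the block), and 0.80 higher than in satellite cells, not called. Sod2, the enzyme of the mitochondrial matrix, read 524 and 443, 617 and 539, and 654 and 555.5 in PDGFRa+, satellite and CD31/CD45 cells. The satellite and CD31/CD45 arrays overlapped, and the PDGFRa+ arrays lay just below them, at -0.37 ± 0.04 relative to CD31/CD45 cells (adjusted p = 0.0133, below 2-fold). Cytosolic Sod1 lay between 242 and 455, both ends being satellite arrays, and peroxisomal catalase (Cat) between 111 and 203.

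Of the heme oxygenases and quinone reductases, Nqo2, which reduces quinones, was called. It read 141 and 193 in PDGFRa+ cells, 52.6 and 56.9 in satellite cells, and 73.2 and 83.3 in CD31/CD45 cells. PDGFRa+ cells were above the rest, by 1.14 ± 0.12 over satellite cells (adjusted p = 0.0151; 1.025 and 0.0607 with the scanner set as a block) and by 0.81 over CD31/CD45 cells. Nqo1 ran from 12.8 in young satellite to 58.5 in aged CD31/CD45 cells. Its -0.75 ± 0.08 for satellite minus CD31/CD45 cells had an adjusted p of 0.00957 and stayed below 2-fold. Hmox2, the constitutive heme oxygenase, lay between 302 and 614.5. Hmox1, the inducible heme oxygenase, read 408 and 431, 171 and 435, and 681 and 687. The CD31/CD45 arrays were highest at both ages, and the difference of satellite minus CD31/CD45 cells, -1.19 ± 0.35, was the 1 difference of at least 2-fold among the members that were not called (adjusted p = 0.0838).

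The glutathione synthesis and reduction genes differed by less than 2-fold throughout. Gclm, the modifier subunit of glutamate-cysteine ligase, read 231 and 254 in PDGFRa+ cells, 154 and 168 in satellite cells, and 269.9 and 246 in CD31/CD45 cells. Satellite cells were lowest, at -0.54 ± 0.10 relative to CD31/CD45 cells (adjusted p = 0.0271). Gclc, the catalytic subunit, ran from 113 in young PDGFRa+ to 254 in aged satellite cells, and Gss from 52.9 to 86.3. Gsr read 129.5 and 137 in CD31/CD45 cells against 61.9 and 60.8 in PDGFRa+ and 48.4 and 58.8 in satellite cells. The CD31/CD45 arrays stood above the other 4, by -0.78 ± 0.05 for PDGFRa+ minus CD31/CD45 (adjusted p = 0.00383) and -0.92 ± 0.05 for satellite minus CD31/CD45 (adjusted p = 0.00258), values past the p threshold and under the fold threshold. The 5 hematopoietic markers summed to 2844 to 3635 on the CD31/CD45 arrays and to 23.9 to 37 on the others, and the part of hematopoietic cells in the levels of Gsr, Gstt2 and Hmox1 was not tested.

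The scanner set was also held constant by using single arrays. Within the set that held both young arrays of PDGFRa+ and satellite cells, 5 of the 6 called members kept their direction at 2-fold or more, and Nqo2 was at 0.94. Within the set that held both aged arrays of satellite and CD31/CD45 cells, all 6 called members kept direction and 2-fold size, from 1.08 for Gsto1 to 4.91 for Gpx3, with Gstt2 at -2.13. These are single array pairs with no test. Each pair is also part of the fit that made the calls, so its agreement is no independent check on the scanner set.

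The question of what differs with age was addressed by the age term of the same fit, which takes the difference common to the 3 cell types (3 aged against 3 young arrays). It called 0 of the 49 members and 0 of 18372 genes (0% of all genes, limma, adjusted p under 0.05), and the smallest adjusted p over all genes was 0.324. At an unadjusted p under 0.05 there were 10 members (20.4%) and 2026 genes (11%). Under each other setting of this fit the adjusted count over all genes was also 0, with 1467 to 3294 genes at an unadjusted p under 0.05.

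Each population also gives 1 aged minus young difference, which carries no test. A higher value on the aged array of all 3 cell types, of any size, was seen for 18 of the 49 members (36.7%), compared with 14.3% of all genes. A lower value on all 3 was seen for 7 members (14.3%), compared with 20.7% of all genes. These shares, too, are not matched for brightness. The 18 were Gclc, Gpx3, Gsr, Gsta3, Gstm1, Gstm2, Gstm3, Gstm6, Gstp2, Gstp3, Hmox1, Nqo1, Nqo2, Prdx1, Prdx4, Sod3, Txnrd1 and Txnrd2, and the 7 were Cat, Gpx6, Gss, Gsto2, Gstt2, Prdx6-ps2 and Sod2. With the authors' deposited values in place of the normalised ones, 15 members (30.6%) were higher on all 3 aged arrays, against 8.94% of all genes. All 15 were among the 18. With the local background of each spot subtracted, 15 members (30.6%) were higher on all 3, against 22.9% of all genes. Of these 15, 4 were among the 18 (Gpx3, Gsr, Gstm2 and Gstm3).

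Differences of at least 2-fold between ages were few. In PDGFRa+ cells 1 member, Gpx3, was at least 2-fold higher on the aged array, where 0.263% of all genes above background were, and 0 were at least 2-fold lower, where 0.162% were. In satellite cells 2 members, Gstm2 and Hmox1, were higher by that size (1.13% of all genes) and 0 lower (0.0999%). In CD31/CD45 cells there were 0 in either direction (0.514% and 0.0663% of all genes).

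**Figure D4:**
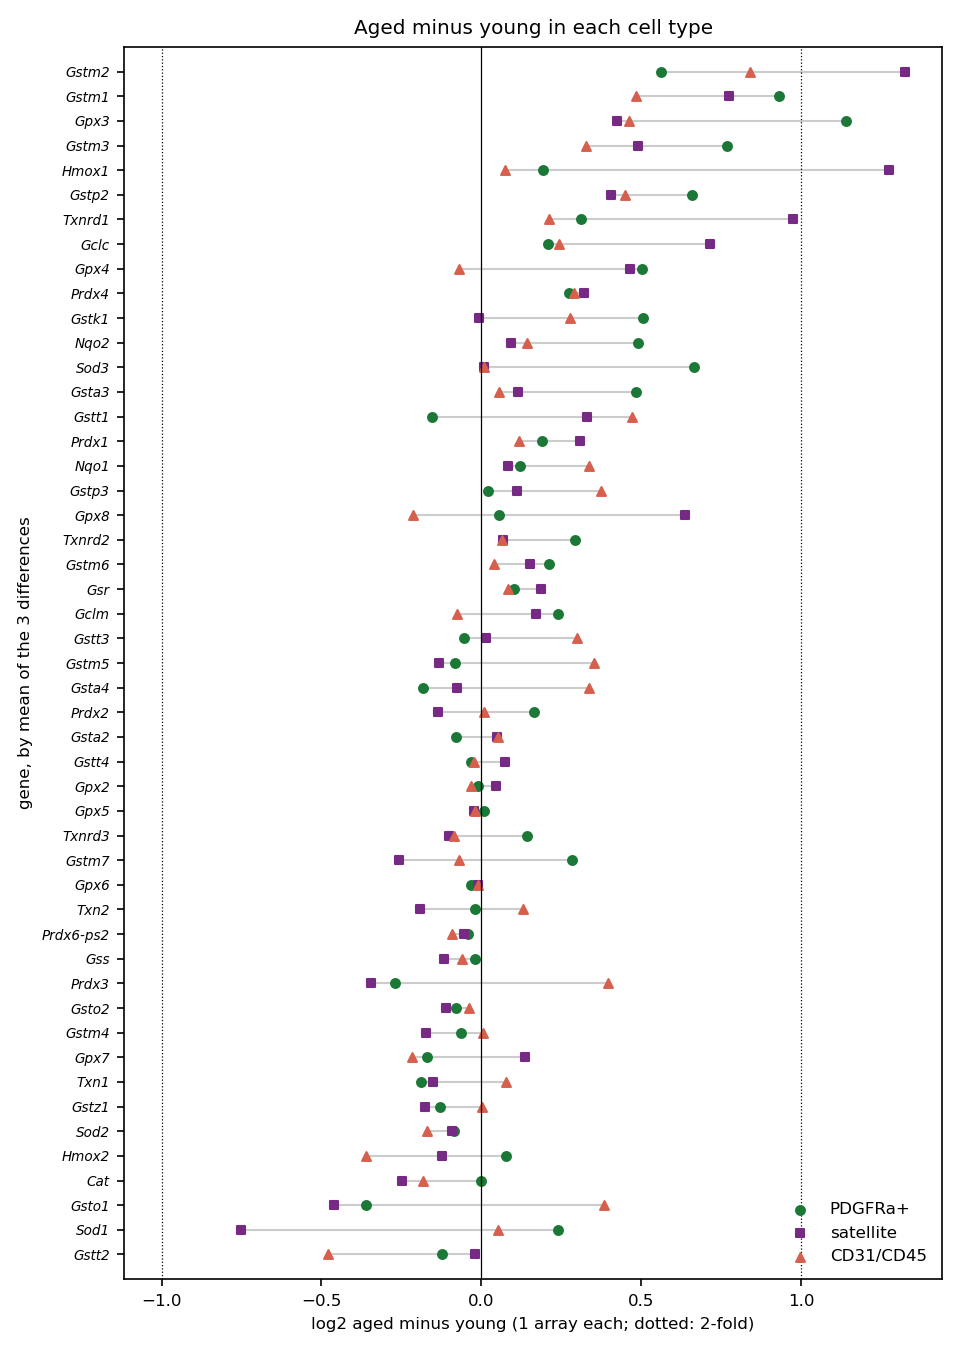
Log2 difference of the aged minus the young array in each cell type (1 array each, no test) for the 49 genes, ordered by the mean of the 3 differences, with dotted lines at 2-fold. Gstm2, Gstm1, Gpx3 and Gstm3 lead the list with 3 positive values each, and Gstt2 is last; with the local background subtracted, Gstm1 turns negative in satellite and CD31/CD45 cells, Hmox1 in satellite cells and Gclc in all 3.

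Among the transferases, the mu class held 4 of the 18 members. Gstm2 read 890.1 (young) and 1249 (aged) in PDGFRa+ cells, 379 and 930.2 in satellite cells, and 435 and 757 in CD31/CD45 cells. Each aged array lay above its young counterpart, with differences of 0.56, 1.32 and 0.84. The age term was 0.91 ± 0.17 (adjusted p = 0.334). The differences of Gstm1 (values above) were 0.93, 0.78 and 0.48 in PDGFRa+, satellite and CD31/CD45 cells, and those of Gstm3 were 0.77, 0.49 and 0.33. The adjusted p of the age term was 0.328 for Gstm1 and 0.335 for Gstm3. With the local background subtracted, Gstm1 was at -0.79 in satellite and -0.43 in CD31/CD45 cells, while Gstm2 and Gstm3 stayed positive in all 3 pairs. Not every mu member followed this pattern: Gstm5 was at -0.08, -0.13 and 0.35, and Gstm7 at 0.28, -0.26 and -0.07. Gstp2 was higher on the aged arrays by 0.66, 0.41 and 0.45, and with the local background subtracted it was at -1.09 in satellite and -1.18 in CD31/CD45 cells.

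Gpx3 was 1.14 higher on the aged PDGFRa+ array, and 0.42 and 0.46 higher on the aged satellite and CD31/CD45 arrays. Its 3 values stayed positive with the local background subtracted (0.87, 0.49 and 1.13). Both PDGFRa+ arrays were in the same scanner set. In that pair the 3 measured glial markers were all higher on the aged array (sum 251.6 young, 489.5 aged), and the 7 myofibre markers (372 and 173) and the 5 mesenchymal progenitor markers (56664 and 40285) were all lower. In 3 other lists the sum followed 1 gene. The erythroid sum went from 632.5 to 283 with Hbb-bt at 590.0 and 249, the pericyte and smooth muscle sum from 577 to 884.5 with Acta2 at 369.5 and 716, and the adipocyte sum from 333 to 507 with Fabp4 at 311 and 491. Without that gene these sums went from 42.5 to 34.1, from 207 to 169 and from 21.8 to 15.8. The part of these cells in the Gpx3 difference was not tested.

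In satellite cells, Hmox1 differed by 1.27, Txnrd1 by 0.97 and Gclc by 0.72. In PDGFRa+ cells the same genes were at 0.19, 0.31 and 0.21, and in CD31/CD45 cells at 0.07, 0.21 and 0.24. Each of the 3 was therefore furthest apart in the satellite pair, a contrast of single arrays that was not tested. Gclm and Nqo1 were not: in PDGFRa+, satellite and CD31/CD45 cells Gclm was at 0.24, 0.17 and -0.08, and Nqo1 at 0.12, 0.08 and 0.34. For the satellite pair the age and the scanner set cannot be told apart. The mesenchymal progenitor markers summed to 1099.8 on the young and 4532 on the aged satellite array (5 of 5 above background on both), the neutrophil markers to 57.9 and 186.5 (5 of 6 higher on the aged array, with Ltf not above background on the young one), the pericyte and smooth muscle markers to 3868 and 6529.6 (6 of 6 higher on the aged array) and the myofibre markers to 2277.5 and 4085 (7 of 7 higher). The macrophage markers summed to 93.6 and 130.8 (7 of 7 higher) and the hematopoietic markers to 23.9 and 37 (5 of 5 higher). The endothelial sum, 504.5 and 470, and the satellite sum, 9819.5 and 8637, were lower on the aged array. The part of these cells in the differences was not tested. With the local background subtracted, Hmox1 was at -0.04 and Gclc at -0.09 in the satellite pair, and Txnrd1 was at 1.07.

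Other differences were smaller. Prdx4 was higher by 0.27, 0.32 and 0.29, the most even of the peroxiredoxins, and Prdx1 by 0.19, 0.31 and 0.12. Prdx4 turned negative in PDGFRa+ and CD31/CD45 cells with the local background subtracted, and Prdx1 in CD31/CD45 cells. Sod3 was at 0.67 in PDGFRa+ cells and 0.01 in satellite cells. Among members lower on all 3 aged arrays, Gstt2 was at -0.12, -0.02 and -0.48, Sod2 at -0.09, -0.09 and -0.17, and Cat at -0.00, -0.25 and -0.18. Sod1 had opposite values, -0.75 in satellite cells and 0.24 in PDGFRa+ cells. In the CD31/CD45 pair the endothelial markers summed to 26205 (young) and 19885 (aged), 6 of 6 lower on the aged array. The hematopoietic markers summed to 2844 and 3635 (5 of 5 higher), and the neutrophil markers to 2427 and 4128.6 (5 higher, 1 lower). The part of these cells in any age difference of the CD31/CD45 pair was not tested. The median difference over the 49 members was 0.08 in PDGFRa+, 0.05 in satellite and 0.05 in CD31/CD45 cells, where over all genes it was 0, -0.01 and -0.01.

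The genes around these enzymes were read from 8 lists of 100 genes in all, of which 94 were tested. In PDGFRa+ against satellite cells 16 (17.0%) were called higher and 5 (5.32%) lower, where 4.09% and 3.2% of all genes were. In PDGFRa+ against CD31/CD45 cells 14 (14.9%) were higher and 11 (11.7%) lower, where 4.7% and 5.4% of all genes were. In satellite against CD31/CD45 cells 12 (12.8%) were higher and 22 (23.4%) lower, where 5.12% and 6.57% of all genes were. The counts of single lists below are to be read against these shares of all genes, and the lists were not tested as sets. For age 0 of the 94 were called. Nfe2l2 itself read 359 and 412 in young and aged PDGFRa+ cells, 252 and 303 in satellite cells, and 427 and 459.6 in CD31/CD45 cells, and Keap1 read 210.5 and 159.6, 126 and 96.5, and 206 and 234. Both were lowest in satellite cells, by -0.59 and -0.79 for satellite minus CD31/CD45, and neither was called. Nfe2l2 was higher on all 3 aged arrays, by 0.30, 0.31 and 0.16.

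In the NRF2 regulation list (10 of 10 tested), Mafk and Maff, small MAF proteins that pair with NRF2, rose in satellite cells. Mafk read 939 and 846 in satellite cells, where no other array passed 230.5, and Maff read 1253 and 1218 against at most 389. The difference of PDGFRa+ minus satellite cells was -2.43 for Mafk (adjusted p = 0.00632) and -1.93 for Maff (adjusted p = 0.0172), the 2 called genes of the list there. The list had 4 members called higher and 1 lower in satellite against CD31/CD45 cells, and 1 higher, Maff, in PDGFRa+ against CD31/CD45 cells.

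NADPH supplies the electrons for glutathione and thioredoxin reductases. Of 9 tested genes of this list, 3 were higher and 1 lower in each of the 3 comparisons, each time with a different set of genes. Idh1, the cytosolic isocitrate dehydrogenase, rose by 1.45 in PDGFRa+ over satellite cells and by 1.35 over CD31/CD45 cells. Idh2, its mitochondrial counterpart, was -1.56 for PDGFRa+ minus satellite cells, with 1069 and 694 on the satellite arrays. H6pd, which makes NADPH in the endoplasmic reticulum, was 1.97 higher in PDGFRa+ and 2.02 higher in satellite than in CD31/CD45 cells.

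In the list of cystine uptake and glutathione turnover (14 of 16 tested), Dpep1, a dipeptidase that splits cysteinylglycine, read 2101 and 2021 in PDGFRa+ cells, with the other 4 arrays at 34 or less, a difference of 5.24 over satellite cells (adjusted p = 0.00539) and 5.56 over CD31/CD45 cells (adjusted p = 0.00216). Slc7a11, the cystine importer and an NRF2 target, did not exceed 4.3 on any array. Called counts in this list were 1 higher and 1 lower, 2 and 2, and 1 and 1 in the order of comparisons used above.

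Thiol repair genes (16 of 16 tested) were called in 2 higher and 0 lower, 1 and 1, and 1 and 4 cases in that order. Glrx, glutaredoxin, read 14.5 and 24.1 in satellite cells against at least 96.4 in the others, and fell by 1.58 in satellite relative to CD31/CD45 cells (adjusted p = 0.007). Txndc5, a disulfide isomerase of the endoplasmic reticulum, rose by 1.02 in PDGFRa+ over satellite cells and by 2.16 over CD31/CD45 cells. Txnip, which binds and inhibits thioredoxin, was -1.29 for satellite minus CD31/CD45 cells (adjusted p = 0.00196).

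Of the 8 microsomal and prostaglandin-related transferases, 4 rose in PDGFRa+ over satellite cells, with none lower, 2 rose and 1 fell in PDGFRa+ against CD31/CD45 cells, and 4 fell in satellite against CD31/CD45 cells. Mgst1, the microsomal transferase, read 4191.5 and 3977 in PDGFRa+ cells, 671 and 705 in satellite cells, and 302 and 533.5 in CD31/CD45 cells. PDGFRa+ cells stood above both, by 2.50 (adjusted p = 0.0133) and 3.26 (adjusted p = 0.00565). Ptges, the inducible prostaglandin E synthase, read 103 and 88.1 in PDGFRa+ cells and at most 5.4 elsewhere.

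In heme and iron handling (10 of 10 tested), 1 gene rose and 1 fell, 2 and 1, and 2 and 3 in that order. The metallothionein Mt2 read 30823 and 25609 in satellite, 13963 and 14121.5 in PDGFRa+ and 1216.5 and 823.5 in CD31/CD45 cells, and was 4.30 higher in satellite than in CD31/CD45 cells (adjusted p = 0.00153). Ftl1, the ferritin light chain, fell by 1.44 in satellite relative to CD31/CD45 cells (adjusted p = 0.00723).

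The sources of oxidants (14 of 16 tested) were called in 2 higher and 0 lower, 1 and 5, and 1 and 7 cases. Xdh, xanthine dehydrogenase, read 1596.5 and 1663 in CD31/CD45 cells, 808 and 665 in PDGFRa+ cells and 31 and 106 in satellite cells, which put satellite cells -4.15 relative to CD31/CD45 cells (adjusted p = 0.00633). Nos3, the endothelial nitric oxide synthase, and Rac2 and Ncf1 of the phagocyte oxidase were at least 246 in CD31/CD45 cells and at most 29.4 elsewhere. The last list, selenoprotein synthesis and other selenoproteins (13 of 14 tested), had 3 higher and 0 lower, 2 and 0, and 0 and 1. Selenom and Selenos, both of the endoplasmic reticulum, rose by 1.52 and 1.80 in PDGFRa+ over CD31/CD45 cells, and Selenop, the secreted selenium carrier, fell by 1.57 in satellite relative to CD31/CD45 cells.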

How the data were processed

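Total RNA of 6 sorted populations was amplified, labelled with Cy5 and hybridised to 1-colour arrays, per the labels' protocols. Each scanner file gives, per the file headers, the median intensity of 27456 spots at 635 nm, merged from 3 gains, and the intensity around each spot. The authors' deposited value table holds linear intensity. Checked against the scanner files, it was the spot median minus the trimmed mean of 2736 blank spots (5% trimmed), multiplied by 1 factor per array, to within 0.0938, and it is empty for spots at or below that mean plus 2 SD.

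Log2 values were computed from the deposited spot intensities with limma 3.58.1 in R 4.3.3: normexp with the blank spots as background, offset 50, and quantile normalisation. Local background was not the main choice because it rose and fell with the spot's signal (log correlation over spots 0.962 to 0.98). Gene symbols from the platform annotation were brought up to date through their Entrez identifiers with RefSeq (GRCm38.p6, names only). They named 20690 probes, and 2783 unnamed probes were not used. A gene's probe was the one with the highest mean deposited intensity, and genes above background on at least 2 arrays were tested. The fit had cell type and age as terms (2 residual and 1.5 prior degrees of freedom), two-sided tests and Benjamini-Hochberg adjustment over all genes. The fit was also run on simulated arrays with independent noise and known changes. Those arrays held no effect of scanner set or of mixed cells, so they give no check on either. No array replicates a cell type and age, and the labels give no replicate numbers. No aligner or genome build applies, and none is given in the sources used here.

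Values on every array are given for members called between cell types, for members at least 2-fold between ages in a cell type and for the member of each family with the highest mean intensity, a rule for naming only. From the pathway lists the rule took Nfe2l2, Keap1 and the called genes with the largest differences; some of these are given as counts, and Slc7a11 was chosen outside it after its values were seen. The members, pathway lists and marker lists were chosen with earlier results of these data known, so none is independent evidence of a direction. Gpx1, Gstp1, Gsta1, Prdx5 and Prdx6 were not analysed here. The alternatives changed the background, offset, scaling, value table, filter, probe choice, variance model, age term and scanner set, and left out each array in turn.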

Additional observations from a re-analysis of the deposited data

Results flagged for a closer look

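For 2 members the aged minus young difference had opposite signs in different cell types with a size of at least 1.25-fold on both sides, a size chosen here. Gsto1 was at -0.36 in PDGFRa+ and -0.46 in satellite cells and at 0.38 in CD31/CD45 cells. Prdx3 was at -0.35 in satellite and 0.40 in CD31/CD45 cells. The marker sums of these pairs, given above, also differed between the young and the aged array, and their part here was not tested. Each value is 1 array against 1 array, and the difference between cell types was not tested. No group holds 4 or more arrays, so no array was tested as standing apart from its group.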

How the results depend on the processing

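Settings were changed one at a time, except that the authors' value table replaces background, normalisation and offset together. Of the counts of called members, that of PDGFRa+ against satellite cells (6) became 0 with the local background and 10 with the authors' value table and a pseudocount of 5, and ran from 0 to 6 with 1 array left out; without either PDGFRa+ array 0% of all genes were called, and without the young satellite array 3 members were. That of PDGFRa+ against CD31/CD45 cells (12) became 2 with the local background and 2 with the scanner set as a block, and ran from 6 (without the aged PDGFRa+ array) to 11. That of satellite against CD31/CD45 cells (6) became 2 with the local background and 10 with the authors' table and pseudocount 5, and ran from 4 (without either PDGFRa+ array) to 6. The share of all genes called in these 3 comparisons was 0.37%, 1.57% and 1.86% with the local background, 13.4%, 17.3% and 20.2% with the authors' table and pseudocount 5, and 12%, 16% and 18.4% with an offset of 10. Where no share of all genes is stated beside a count, a change in it cannot be read as particular to the members. With the local background the members at least 2-fold between ages numbered 9, 6 and 5 in PDGFRa+, satellite and CD31/CD45 cells, in place of 1, 2 and 0. With the authors' table and pseudocount 5 there was 1 in CD31/CD45 cells. The share of all genes of that size under these settings is not set beside these counts, so they are no result about the members. Hmox1 in the satellite pair turned to -0.038 with the local background, the 1 reversal among the 24 called differences and the 3 age differences of at least 2-fold. Smaller age differences also changed sign with the local background (among them Gstm1, Gstp2 and Prdx4 in a pair or more and Gclc in all 3). The count higher on all 3 aged arrays, computed over settings chosen after seeing the data, was 15 to 18. Median scaling turned Hmox1 to -0.01 in the CD31/CD45 pair. The authors' table with pseudocount 5 shifted the median of all genes in the PDGFRa+ pair by -0.11. The cause of these changes was not tested.

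Of the 24 called differences between cell types, 20 lost the call with the local background, 12 with the scanner set as a block, 14 without the aged and 11 without the young PDGFRa+ array, and 3 to 5 without each other array. Gpx3 and Gstt2 in satellite against CD31/CD45 cells and Gpx7 in PDGFRa+ against CD31/CD45 cells kept the call under all 20 alternatives. With an array left out, the lone array of its cell type is assumed to vary like the other cell types. With the scanner set as a block, the set term rests on the satellite pair alone, so calls lost there are no measure of the scanner set. No paired analysis was possible because the labels carry no replicate numbers. For dim genes the signal over background and the offset limit what a difference can show.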
